A study of Mus musculus with 6 samples.

Results

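The glutathione transferases and antioxidant enzymes of mouse epididymal fat were taken as the 53 protein-coding genes, of 48897 genes in the deposited table, whose symbols follow the family names. These are the cytosolic transferases (Gsta, Gstm, Gstp, Gstt, Gsto, Gstz and Gstk), the microsomal transferases (Mgst), the glutathione peroxidases (Gpx), the peroxiredoxins (Prdx), the superoxide dismutases (Sod1, Sod2 and Sod3), the thioredoxins and their reductases (Txn and Txnrd), and Cat, Gclc, Gclm, Gsr, Gss and Nqo1. The choice used names and gene type and no measured value. Messenger RNA was sequenced in white adipose tissue of the epididymal depot, a visceral fat pad lying against the epididymis, of wild-type C57BL/6 mice aged 35 weeks, with diets begun at 6 weeks of age. Group F-H-L is read as 9 weeks of high-fat diet (60% of calories from fat) followed by 10 cycles, each of 1 week of low-fat diet (10% of calories from fat) and 1 week of high-fat diet, so that feeding ended in a high-fat week. Group F-H is read as continuous high-fat diet and group F-L as continuous low-fat diet. Only the letters of the codes link them to the diets in the labels. Each group had 2 libraries, called replicate 1 and replicate 2, and no label says whether different mice gave them, so p-values here speak of the spread among libraries alone, and that spread may be technical.

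These enzymes share the work of removing peroxides and reactive electrophiles. Superoxide dismutases turn superoxide into hydrogen peroxide, which catalase, the glutathione peroxidases and the peroxiredoxins reduce. Glutathione peroxidases and transferases draw on glutathione, made by glutamate-cysteine ligase and glutathione synthase and regenerated by glutathione reductase, and most peroxiredoxins draw on thioredoxin. Transferases attach glutathione to electrophiles such as lipid aldehydes, and in fat Gsta4 is known for clearing the aldehydes that arise from oxidised fatty acids. Many of these genes are known targets of the transcription factor Nrf2 (gene Nfe2l2), which binds antioxidant response elements and is held back by Keap1.

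The promoters of 4 members are shown, and each of the 4 has a match to the motif named below in at least 1 RefSeq window. Gsta3, Gstm5 and Gstm7 were higher in both F-L libraries than in both F-H libraries, and Prdx1 was lower. Members whose F-H and F-L libraries were also apart but had no match, among them Gstm6, Gpx3 and Gpx1, are not shown. The windows shown are thus not typical of the members. Each line gives the 250 bases before the RefSeq transcription start in build GRCm38.p6, 5′ to 3′ on the gene's strand, with a match to the core of the antioxidant response element, TGACNNNGC (N is any base) on either strand, in capitals. Gsta3 is read at chr1:21240335-21240584 on the plus strand, Gstm5 at chr3:107895604-107895853 on the plus strand, Gstm7 at chr3:107931818-107932067 on the minus strand and Prdx1 at chr4:116685349-116685598 on the plus strand.
Gsta3: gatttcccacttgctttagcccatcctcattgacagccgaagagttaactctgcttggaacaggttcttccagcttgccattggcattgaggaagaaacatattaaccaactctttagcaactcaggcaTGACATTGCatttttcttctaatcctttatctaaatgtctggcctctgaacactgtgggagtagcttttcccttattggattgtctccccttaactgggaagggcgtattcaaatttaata
Gstm5: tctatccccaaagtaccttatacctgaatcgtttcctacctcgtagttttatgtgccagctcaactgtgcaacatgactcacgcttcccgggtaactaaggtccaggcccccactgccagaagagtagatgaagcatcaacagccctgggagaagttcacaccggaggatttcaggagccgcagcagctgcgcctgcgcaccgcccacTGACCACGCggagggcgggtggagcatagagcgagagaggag
Gstm7: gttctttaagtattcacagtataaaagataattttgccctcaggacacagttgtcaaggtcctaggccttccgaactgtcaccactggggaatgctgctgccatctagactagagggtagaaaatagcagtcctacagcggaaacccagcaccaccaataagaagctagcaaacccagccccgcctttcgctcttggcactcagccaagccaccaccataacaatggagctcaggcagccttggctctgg
Prdx1: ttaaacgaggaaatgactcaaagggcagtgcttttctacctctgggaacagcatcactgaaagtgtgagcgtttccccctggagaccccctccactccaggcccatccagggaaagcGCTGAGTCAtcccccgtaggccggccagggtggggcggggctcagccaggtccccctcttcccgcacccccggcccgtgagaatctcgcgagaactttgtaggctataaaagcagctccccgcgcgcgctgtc
The match began at base -121 in Gsta3, at -42 in Gstm5 and at -133 in Prdx1. The window of Gstm7 shown, at the outer of its RefSeq starts, held none, which says only that these letters are not in this window. RefSeq windows of 300 bases (250 before and 50 after the start) were found for 46 of the 53 members, and 8 of the 46 (17.4%) held a match in at least 1 window, against 14% of 27025 genes with a window. The other 5 members with a match were Gclm, Mgst1, Sod1, Txnrd1 and Gstm7, the last at an inner start. Matches are a description of the letters and not of binding.

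The libraries held 41091012 to 49230161 counts each. A count of 0 thus allowed a level of up to 0.0609 to 0.073 CPM (3 counts, CPM in these limits being counts scaled to the library total). These limits, and the intervals given below, cover counting error only. Levels are given as adjusted RPKM, that is, RPKM recomputed from the counts and the gene length with TMM-adjusted library sizes (TMM is edgeR's scaling of libraries). CPM values of markers below use the same TMM-adjusted library sizes. Marker genes of the cell types that the dissected tissue could hold differed between libraries. The 20 adipocyte markers took 4.63% and 5.02% of counts in F-H-L, 2.28% and 3.09% in F-H, against 0.383% and 2.98% in F-L. Adipoq, the adiponectin gene that defines fat cells, was present throughout but stood at 91.1 adjusted RPKM in F-L replicate 1, against 605 to 1687 in the other 5 libraries. The 21 epididymis epithelium markers took 0.165% and 0.139% in F-H-L, 0.00029% and 0.045% in F-H, against 1.88% and 0.392% in F-L, with 14 of the 21 at 0 counts in F-H replicate 1. The 16 testis germ cell markers took 0.013% and 0.0144% in F-H-L, 0.00107% and 0.00185% in F-H, against 0.0802% and 0.694% in F-L, with none at 0. The 20 macrophage markers took 0.256% and 0.19% in F-H-L, 2.13% and 1.21% in F-H, against 0.0631% and 0.146% in F-L. In bulk tissue, fewer cells of a type and less RNA per cell cannot be told apart.

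The members together took 0.843% and 0.871% of counts in F-H-L, 0.565% and 0.714% in F-H, against 2.04% and 0.947% in F-L. Much of the F-L replicate 1 share was Gpx3, which alone held 1.03% of its counts (95% Wilson interval 1.028% to 1.035%). The F-H-L libraries stood close to each other for nearly every member, while the F-L libraries often differed several-fold. Of the 50 members tested, 19 were highest in F-L replicate 1 (38%, against 27.9% of all genes tested), 17 in F-H-L replicate 2 (34%, against 13.6%) and 9 in F-L replicate 2 (18%, against 20.8%). F-H replicate 1 was the lowest library for 24 of them (48%, against 28.4% of all genes tested). Gpx2, Gpx6 and Gsta1 were too low to be tested.

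**Figure D1:**
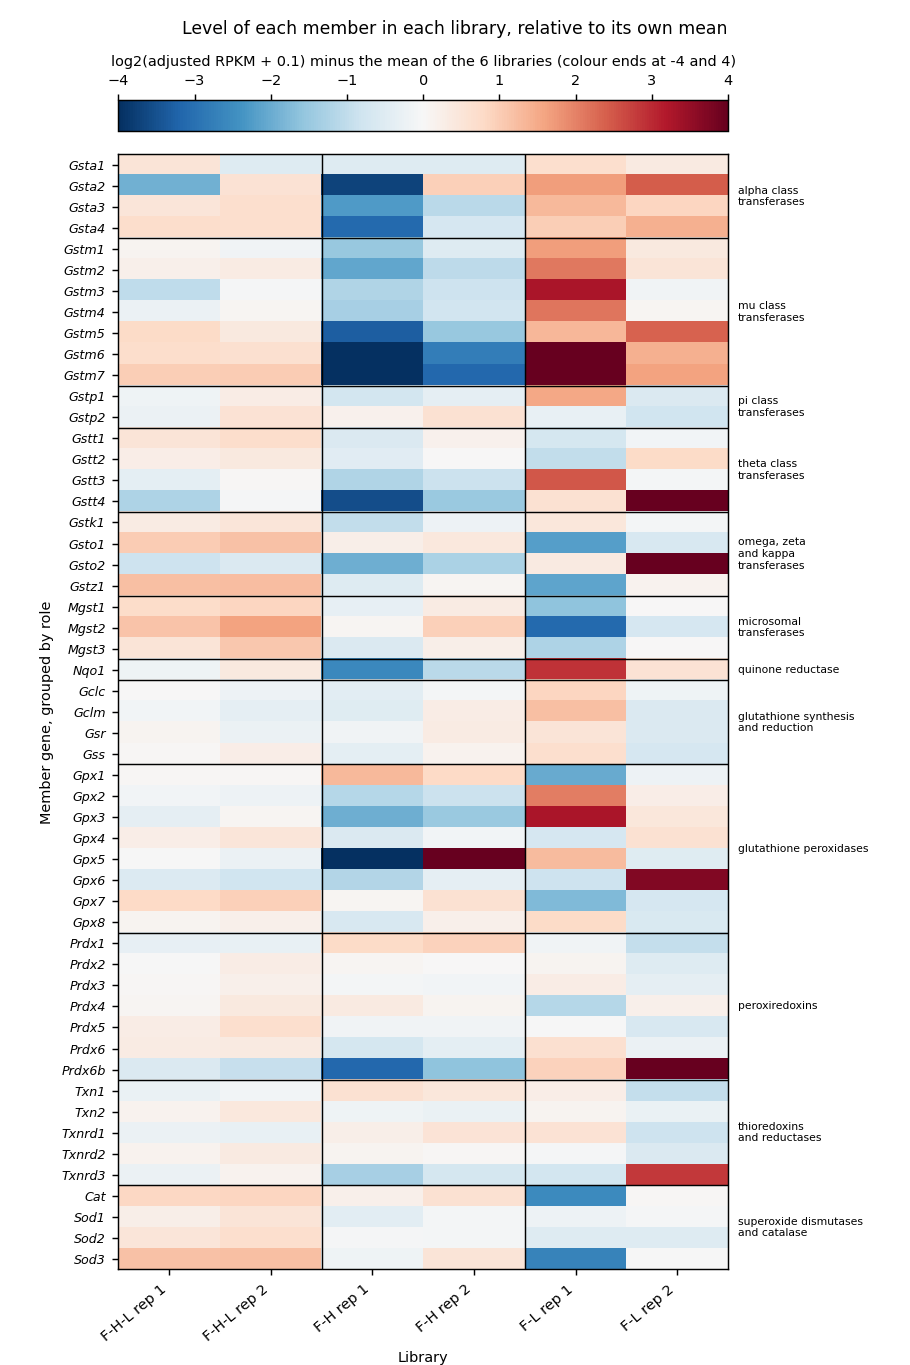
Level of the 53 members in each library, as log2(adjusted RPKM + 0.1) minus the member's mean over the 6 libraries; rows are genes grouped by role, columns are the F-H-L, F-H and F-L libraries, red is above and blue below the member's mean. The mu class transferases are blue in both F-H libraries and red in F-L replicate 1, the library in which 21 of the 53 members were highest.

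No member passed the test in any comparison. In F-H against F-L, edgeR's quasi-likelihood test called 0 of 50 members at an adjusted p under 0.05 (0.866% of the 22289 genes tested were called), and 20 members had an unadjusted p under 0.05, 4 of them higher in F-H and 16 lower (29.2% of all genes, 12.5% higher and 16.7% lower). DESeq2 called 19 members in that comparison, 3 higher and 16 lower (27.1% of all genes), and limma called 0 on log2(RPKM + 1) (1.84%) and 4 on log2(RPKM + 0.1) (4.67%). In F-H-L against F-L, edgeR called 0 members (0.0% of all genes), 11 had an unadjusted p under 0.05, 6 higher and 5 lower (17.8% of all genes, 8.32% higher and 9.51% lower), DESeq2 called 9 (10.9%) and limma called 0 with either pseudocount. In F-H-L against F-H, edgeR called 0 members (0.0% of all genes), 8 had an unadjusted p under 0.05, 7 higher and 1 lower (10.6% of all genes, 4.92% higher and 5.68% lower), DESeq2 called 4 (5.36%) and limma called 0 with either pseudocount. With no low-count filter edgeR called 24, 19 and 10 members in these 3 comparisons (14.1%, 9.18% and 4.13% of all genes). With a filter of at least 1 RPKM in 2 libraries it called 2 in F-H against F-L (4.28%), and at an adjusted p under 0.1 it called 9 there (14.1%). The 3 comparisons share their libraries in pairs, so each is described by its own values. In what follows, a value after ± is the SE of a log2 fold change from the edgeR fit (n = 2 libraries per group), and an adjusted p is that of edgeR, by Benjamini-Hochberg over the 22289 genes.

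F-H was set against F-L to see the effect of continuous high-fat feeding. Both F-H libraries lay below both F-L libraries for 18 of the 50 tested members (28.8% of all genes did so) and above them for 10 (27.0%), with a median log2 fold change of -0.30, against -0.12 over all genes, and 21 positive ones (46.1% of all genes). All 7 mu class and all 3 tested alpha class transferases, Nqo1 and the secreted peroxidase Gpx3 were among the lower ones. Gpx1, Prdx1, the thioredoxin Txn1 and the omega transferase Gsto1 were among the higher ones. When F-L replicate 1 was left out, edgeR called 16 members (16.8% of all genes), and when F-L replicate 2 was left out it called 24 (23.8% of all genes); the lone F-L library was then assumed to vary like the other groups. Over the fits with 1 library left out, the log2 fold change ran from -4.90 to -2.18 for Gpx3 and -3.34 to -2.14 for Gsta3. It ran from -5.15 to -3.39 for Gstm5, -7.28 to -4.78 for Gstm6 and -9.10 to -5.49 for Gstm7. For Gpx1 it ran from 1.27 to 3.16 and for Prdx1 from 1.08 to 1.78. Other members turned sign, as given under how the results depend on the processing.

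F-H-L was set against F-L to compare diet cycling with low-fat feeding. Both F-H-L libraries lay above both F-L libraries for 16 of the 50 tested members (29.8% of all genes) and below them for 13 (23.8%), with a median log2 fold change of 0.02, against -0.09 over all genes, and 26 positive ones (46.7% of all genes). All 4 of the superoxide dismutases and catalase and all 3 microsomal transferases were higher in F-H-L without overlap. The 13 lower ones were all 3 tested alpha class and 5 of 7 mu class transferases, Gpx3, Nqo1, Gsto2, Gstt4 and Prdx6b. Without F-L replicate 1 edgeR called 5 members (7.85% of all genes), and without F-L replicate 2 it called 20 (14.4%), with Gsto1 called in both.

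F-H-L was set against F-H to compare diet cycling with unbroken high-fat feeding. Both F-H-L libraries lay above both F-H libraries for 35 of the 50 tested members (35.6% of all genes) and below them for 4 (25.6%), with a median log2 fold change of 0.73, against 0.10 over all genes. A positive log2 fold change was found for 41 members (55.1% of all genes). Those with higher F-H-L values included 6 of 7 mu class transferases, all 4 theta class, all 4 of the omega, zeta and kappa class, all 3 microsomal transferases, and Cat, Sod1, Sod2 and Sod3. The 4 lower ones were Gpx1, Prdx1, Txn1 and Txnrd1. Without either F-L library in turn, edgeR called 3 members each time (3.12% and 2.50% of all genes): Gstm6 and Gstm7, higher in F-H-L, and Prdx1, lower. With these 4 libraries fitted alone it called Gstm6 (1.46% of all genes).

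**Figure D2:**
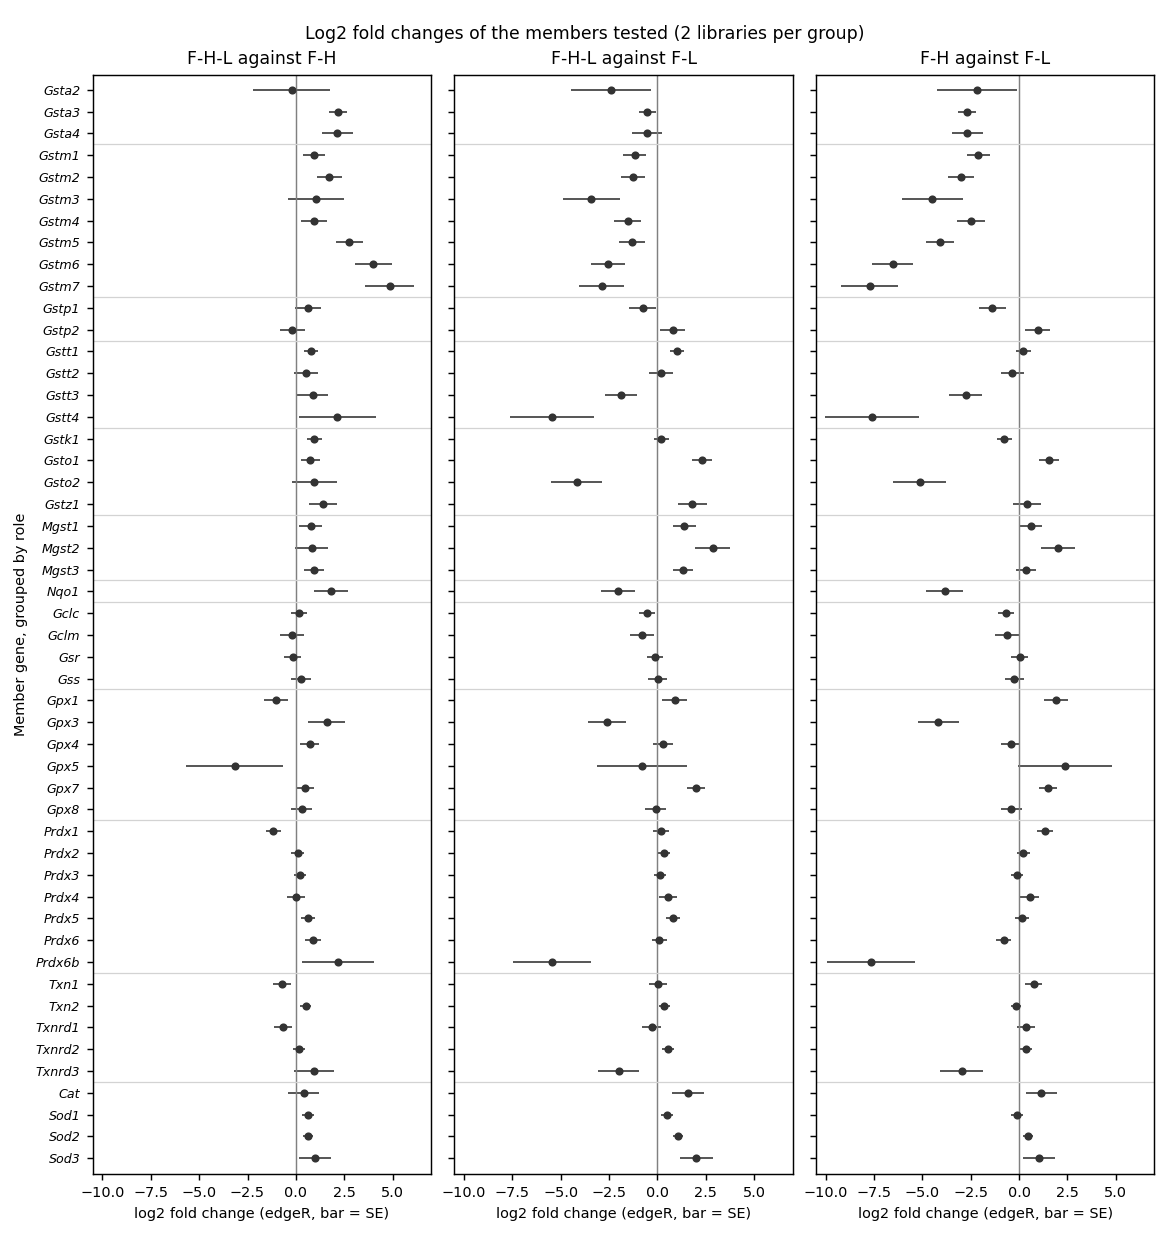
Log2 fold change of each of the 50 tested members in F-H-L against F-H, F-H-L against F-L and F-H against F-L, from edgeR, with bars of 1 SE and rows grouped by role; positive is higher in the group named before "against". Gstm6 and Gstm7 lie at 4.0 and 4.85 in F-H-L against F-H and at -6.55 and -7.73 in F-H against F-L.

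All 7 mu class transferases had lower values in both F-H libraries than in both F-L libraries (28.8% of all genes did so). Their genes form a cluster on chromosome 3 (mm10, 107895854 to 108045082), with Gstm5 at one end on the plus strand and Gstm7, Gstm6, Gstm3, Gstm2, Gstm1 and Gstm4 following on the minus strand. Gstm7 (Entrez 68312, mm10 chromosome 3, 107926334 to 107931871) stood at 97.0 and 98.3 adjusted RPKM in F-H-L, 1.27 and 5.49 in F-H, against 1286 and 149.7 in F-L. The F-H-L libraries were nearly equal, both F-H libraries were far below them, and both F-L libraries were above, with an 8.59-fold gap between them. Gstm7 had a log2 fold change of -7.73 ± 1.45 in F-H against F-L (adjusted p = 0.0676), -2.88 ± 1.16 in F-H-L against F-L (adjusted p = 0.28) and 4.85 ± 1.28 in F-H-L against F-H (adjusted p = 0.355). Gstm6 stood at 35.1 and 33.1 adjusted RPKM in F-H-L, 1.25 and 3.02 in F-H, against 341 and 58.0 in F-L, in the same order and again without overlap. Gstm6 had a log2 fold change of -6.55 ± 1.07 in F-H against F-L (adjusted p = 0.0594), -2.55 ± 0.89 in F-H-L against F-L (adjusted p = 0.274) and 4.0 ± 0.95 in F-H-L against F-H (adjusted p = 0.328).

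Gstm5 stood at 192 and 147 adjusted RPKM in F-H-L, 11.3 and 38.6 in F-H, against 278 and 568 in F-L. Unlike Gstm6 and Gstm7 it was highest in F-L replicate 2, and all 3 groups were apart. Its log2 fold change was -4.08 ± 0.74 in F-H against F-L (adjusted p = 0.0651), -1.32 ± 0.67 in F-H-L against F-L (adjusted p = 0.327) and 2.76 ± 0.70 in F-H-L against F-H (adjusted p = 0.342). Gstm1, an abundant mu class transferase, stood at 241 and 201 adjusted RPKM in F-H-L, 77.6 and 155 in F-H, against 715 and 289 in F-L, also with all 3 groups apart. Gstm1 had a log2 fold change of -2.11 ± 0.59 in F-H against F-L (adjusted p = 0.0986), -1.18 ± 0.57 in F-H-L against F-L (adjusted p = 0.317) and 0.92 ± 0.57 in F-H-L against F-H (adjusted p = 0.587). Gstm2 ran in the same order, from 54.0 adjusted RPKM in F-H replicate 1 to 996 in F-L replicate 1. Gstm4 ran from 5.80 in F-H replicate 1 to 65.4 in F-L replicate 1, and its F-H-L and F-L libraries overlapped. Gstm3 was low, with 0.0759 and 0.251 adjusted RPKM in F-H-L, 0.0550 and 0.101 in F-H, against 3.34 and 0.223 in F-L, and only F-L replicate 1 passed 1 adjusted RPKM. Gstm3 had a log2 fold change of -4.48 ± 1.57 in F-H against F-L (adjusted p = 0.136), -3.43 ± 1.48 in F-H-L against F-L (adjusted p = 0.291) and 1.05 ± 1.47 in F-H-L against F-H (adjusted p = 0.811).

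All 7 mu class genes were lower in F-H than in F-L at an unadjusted edgeR p under 0.05 (16.7% of all genes were). Their class median log2 fold change in F-H against F-L was -4.08. It was -2.01 without F-L replicate 1 and -3.50 without F-L replicate 2. The class median was -1.54 in F-H-L against F-L, -0.53 without F-L replicate 1 and -2.21 without F-L replicate 2, and it was 1.73 in F-H-L against F-H. All 7 kept their sign in the first 2 of these comparisons under each normalization and each library left out, and in F-H-L against F-H all but Gstm3 did, which turned to -0.02 without F-H-L replicate 2. The summed share of the epididymis epithelium markers had the same order of groups, and Crisp1, their most abundant gene, stood at 874 and 745 adjusted RPKM in F-H-L, 1.74 and 269 in F-H, against 7261 and 1723 in F-L. The 18 markers tested did not all follow it. In F-H against F-L, 7 of the 18 were positive, with a median log2 fold change of -3.81. In F-H-L against F-L, 3 were positive, with a median of -2.48, and 0 of 7 mu class genes were positive in either. In F-H-L against F-H, 9 of the 18 markers were positive, with a median of -0.24, while 7 of 7 mu class genes were positive. There, 4 markers were higher and 0 lower at an unadjusted edgeR p under 0.05 (4.92% and 5.68% of all genes). The part of these markers in the mu class differences was not tested. Of the transcript letters of the class, 28.8% of the 50-base stretches of Gstm3, 23.1% of Gstm1, 11.5% of Gstm6 and 9.36% of Gstm2 recur in other genes. Reads of such stretches cannot be placed with certainty. None recur for Gstm4, Gstm5 and Gstm7.

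**Figure D3:**
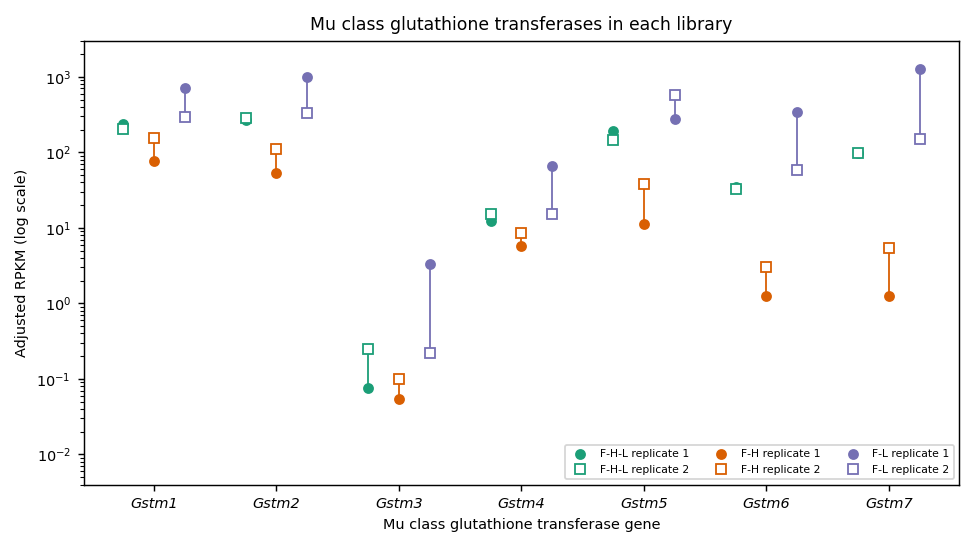
Adjusted RPKM of the 7 mu class transferase genes on a log scale, with 1 point per library (filled for replicate 1, open for replicate 2) and the F-H-L, F-H and F-L libraries of each gene side by side. The F-H points lie lowest for every gene and the F-L points highest, apart from overlaps of F-H-L with F-L for Gstm3 and Gstm4 and of F-H-L with F-H for Gstm3; Gstm7 spans 1.27 to 1286.

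Among the alpha class, Gsta3, a transferase also known as a steroid isomerase, stood at 64.6 and 73.1 adjusted RPKM in F-H-L, 9.32 and 21.5 in F-H, against 113 and 83.8 in F-L. Both F-H libraries were below the other 4. Gsta3 (Entrez 14859, mm10 chromosome 1, 21240585 to 21265575) had a log2 fold change of -2.68 ± 0.47 in F-H against F-L (adjusted p = 0.0639), -0.52 ± 0.44 in F-H-L against F-L (adjusted p = 0.524) and 2.16 ± 0.46 in F-H-L against F-H (adjusted p = 0.293). Gsta4, which conjugates the lipid aldehyde 4-hydroxynonenal, stood at 26.4 and 26.2 adjusted RPKM in F-H-L, 1.79 and 10.2 in F-H, against 32.4 and 43.7 in F-L, with F-H replicate 1 lowest and the F-L libraries above both F-H-L libraries. Its F-H libraries differed 5.67-fold. Gsta4 had a log2 fold change of -2.67 ± 0.81 in F-H against F-L (adjusted p = 0.11), -0.53 ± 0.77 in F-H-L against F-L (adjusted p = 0.709) and 2.14 ± 0.80 in F-H-L against F-H (adjusted p = 0.452). Gsta2 stayed between 0 and 6.91 adjusted RPKM, and Gsta1 had at most 5 counts in a library; 64.2% of the 50-base stretches of Gsta2 and 89.7% of those of Gsta1 recur in other genes, so neither can be placed with certainty.

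Gstp1, the pi class transferase, stood at 115 and 157 adjusted RPKM in F-H-L, 77.3 and 100.04 in F-H, against 377 and 86.4 in F-L. F-L replicate 1 was far above and F-L replicate 2 below both F-H-L libraries. Gstp1 had a log2 fold change of -1.39 ± 0.69 in F-H against F-L (adjusted p = 0.247), -0.77 ± 0.68 in F-H-L against F-L (adjusted p = 0.536) and 0.62 ± 0.68 in F-H-L against F-H (adjusted p = 0.753), and without F-L replicate 1 it became 0.03 in F-H against F-L. Gstp2 lay between 2.55 and 6.89 adjusted RPKM, and 62.3% of the stretches of Gstp1 and 72.6% of those of Gstp2 recur in other genes, mostly in each other. In the theta class, Gstt4 stood at 0.394 and 1.02 adjusted RPKM in F-H-L, 0 and 0.320 in F-H, against 1.69 and 60.9 in F-L, so that F-L replicate 2 held nearly all of it. Gstt4 had a log2 fold change of -7.61 ± 2.43 in F-H against F-L (adjusted p = 0.118), -5.46 ± 2.18 in F-H-L against F-L (adjusted p = 0.279) and 2.14 ± 2.00 in F-H-L against F-H (adjusted p = 0.705). Gstt3 ran from 4.13 in F-H replicate 1 to 54.0 in F-L replicate 1, while Gstt1 was at 34.1 and 38.9 in F-H-L and between 14.5 and 26.8 in the other libraries. Gstt2 stayed between 5.15 and 17.5.

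The omega, zeta and kappa transferases differed in which group was highest. Gsto2, known as a dehydroascorbate reductase, stood at 1.21 and 1.46 adjusted RPKM in F-H-L, 0.506 and 0.869 in F-H, against 2.89 and 45.7 in F-L, again almost wholly in F-L replicate 2. For Gsto2 the log2 fold change was -5.14 ± 1.37 in F-H against F-L (adjusted p = 0.0929), -4.18 ± 1.30 in F-H-L against F-L (adjusted p = 0.274) and 0.96 ± 1.17 in F-H-L against F-H (adjusted p = 0.779). Its neighbour Gsto1 ran the other way: it was at 86.9 and 97.3 adjusted RPKM in F-H-L, 51.3 and 57.7 in F-H, against 9.40 and 27.9 in F-L, with all 3 groups apart. Gsto1 had a log2 fold change of 1.54 ± 0.52 in F-H against F-L (adjusted p = 0.13), 2.30 ± 0.54 in F-H-L against F-L (adjusted p = 0.274) and 0.76 ± 0.52 in F-H-L against F-H (adjusted p = 0.614). Gstz1, an enzyme of tyrosine breakdown, stood at 303 and 313 in F-H-L and between 30.5 and 147 in the other 4 libraries. Gstk1, found in mitochondria and peroxisomes, was at 40.04 and 44.2 in F-H-L, 15.9 and 27.4 in F-H, against 42.9 and 30.1 in F-L.

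The microsomal transferases were highest in F-H-L. Mgst1, the most abundant of them, stood at 360.2 and 394 adjusted RPKM in F-H-L, 170.4 and 274 in F-H, against 70.5 and 218 in F-L. Both F-H-L libraries were above the other 4, and F-L replicate 1 was lowest. Mgst1 had a log2 fold change of 0.62 ± 0.59 in F-H against F-L (adjusted p = 0.532), 1.39 ± 0.60 in F-H-L against F-L (adjusted p = 0.29) and 0.76 ± 0.59 in F-H-L against F-H (adjusted p = 0.654). Mgst3 ran from 54.2 in F-L replicate 1 to 269.8 in F-H-L replicate 2, and Mgst2 from 0.674 in F-L replicate 1 to 20.3 in F-H-L replicate 2. Nqo1, which reduces quinones and is a classic Nrf2 target, stood at 8.16 and 12.1 adjusted RPKM in F-H-L, 1.46 and 4.32 in F-H, against 69.0 and 13.9 in F-L. F-L replicate 1 was 4.95-fold above F-L replicate 2, and all 3 groups were apart. Nqo1 had a log2 fold change of -3.84 ± 0.96 in F-H against F-L (adjusted p = 0.0882), -2.03 ± 0.89 in F-H-L against F-L (adjusted p = 0.292) and 1.81 ± 0.88 in F-H-L against F-H (adjusted p = 0.525).

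Genes of glutathione synthesis and reduction had overlapping values in the 3 groups. Gclc, the catalytic subunit of glutamate-cysteine ligase, stood at 9.66 and 8.38 adjusted RPKM in F-H-L, 7.14 and 9.07 in F-H, against 17.4 and 8.47 in F-L. Gclm, its modifier subunit, stood at 20.8 and 17.5 adjusted RPKM in F-H-L, 15.9 and 27.6 in F-H, against 51.9 and 14.9 in F-L. In both, F-L replicate 1 was highest, and the other 5 libraries lay between 7.14 and 9.66 for Gclc and between 14.9 and 27.6 for Gclm. The log2 fold change of Gclc was -0.68 ± 0.41 in F-H against F-L (adjusted p = 0.328), -0.52 ± 0.41 in F-H-L against F-L (adjusted p = 0.483) and 0.15 ± 0.41 in F-H-L against F-H (adjusted p = 0.908), and that of Gclm was -0.62 ± 0.62 in F-H against F-L (adjusted p = 0.557), -0.80 ± 0.62 in F-H-L against F-L (adjusted p = 0.482) and -0.18 ± 0.62 in F-H-L against F-H (adjusted p = 0.932). Gsr, glutathione reductase, stood at 21.6 and 17.3 adjusted RPKM in F-H-L, 18.2 and 25.5 in F-H, against 29.2 and 13.5 in F-L, with every pair of groups overlapping. Gsr had a log2 fold change of 0.04 ± 0.43 in F-H against F-L (adjusted p = 0.968), -0.13 ± 0.43 in F-H-L against F-L (adjusted p = 0.884) and -0.16 ± 0.43 in F-H-L against F-H (adjusted p = 0.908). Gss, glutathione synthase, lay between 7.82 and 20.0 adjusted RPKM, and each of the 4 genes overlapped between the groups in all 3 comparisons.

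The glutathione peroxidases split by member. Gpx3, the peroxidase secreted into plasma, stood at 503 and 693 adjusted RPKM in F-H-L, 167 and 231 in F-H, against 6294 and 893 in F-L. All 3 groups were apart, F-H lowest, and F-L replicate 1 stood 7.05-fold above F-L replicate 2. Gpx3 (Entrez 14778, mm10 chromosome 11, 54902854 to 54910382) had a log2 fold change of -4.17 ± 1.06 in F-H against F-L (adjusted p = 0.0891), -2.59 ± 0.98 in F-H-L against F-L (adjusted p = 0.276) and 1.59 ± 0.95 in F-H-L against F-H (adjusted p = 0.576). Gpx1, the cytosolic peroxidase, stood at 439 and 437 adjusted RPKM in F-H-L, 1047 and 739 in F-H, against 106 and 369 in F-L. It ran against Gpx3, with the F-H libraries highest and the F-L libraries lowest. Gpx1 (Entrez 14775, mm10 chromosome 9, 108339080 to 108340342) had a log2 fold change of 1.91 ± 0.65 in F-H against F-L (adjusted p = 0.129), 0.88 ± 0.63 in F-H-L against F-L (adjusted p = 0.448) and -1.03 ± 0.63 in F-H-L against F-H (adjusted p = 0.584).

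Gpx4, which reduces phospholipid peroxides in membranes, stood at 444 and 513 adjusted RPKM in F-H-L, 245 and 341 in F-H, against 234 and 561 in F-L. The F-L libraries lay at either end of the range, and 61.7% of its 50-base stretches recur in a pseudogene. Gpx4 had a log2 fold change of -0.44 ± 0.51 in F-H against F-L (adjusted p = 0.619), 0.27 ± 0.51 in F-H-L against F-L (adjusted p = 0.785) and 0.71 ± 0.51 in F-H-L against F-H (adjusted p = 0.635). Gpx7 and Gpx8 are peroxidases of the endoplasmic reticulum. Gpx7 was at 24.8 and 27.8 adjusted RPKM in F-H-L, 15.3 and 22.1 in F-H, against 4.17 and 9.02 in F-L, with all 3 groups apart. Gpx8 lay between 14.9 and 39.7, with every pair of groups overlapping.

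Gpx5, a peroxidase secreted by the epididymis, had 160 and 125 counts in F-H-L, 0 and 2518 in F-H, against 404 and 145 in F-L. Its level was 36.5 adjusted RPKM in F-H replicate 2 and at most 5.45 in the others, and the count of 0 in F-H replicate 1 allowed up to 0.0609 CPM. Thus a transcript with 0 counts in one F-H library was highest in the other. The log2 fold change of Gpx5 was 2.38 ± 2.42 in F-H against F-L (adjusted p = 0.564), -0.78 ± 2.32 in F-H-L against F-L (adjusted p = 0.867) and -3.16 ± 2.50 in F-H-L against F-H (adjusted p = 0.662), and it turned to -11.05 in F-H against F-L and to 10.32 in F-H-L against F-H without F-H replicate 2. Lcn8, an epididymis marker, was likewise highest in F-H replicate 2, at 21.2 adjusted RPKM, against 0.0337 in F-H replicate 1, 3.67 and 2.89 in F-H-L, and 4.0 and 2.36 in F-L. The epididymis markers did not all follow Lcn8. Their median was highest in F-H replicate 2, at 1.70 CPM. Their summed share was highest in F-L replicate 1, at 1.88% of counts against 0.045% in F-H replicate 2, and so was Crisp1. The part of epididymis transcripts in the Gpx5 values was not tested. Gpx6 had 259 counts in F-L replicate 2 and at most 5 elsewhere, and Gpx2 had at most 39 counts.

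**Figure D4:**
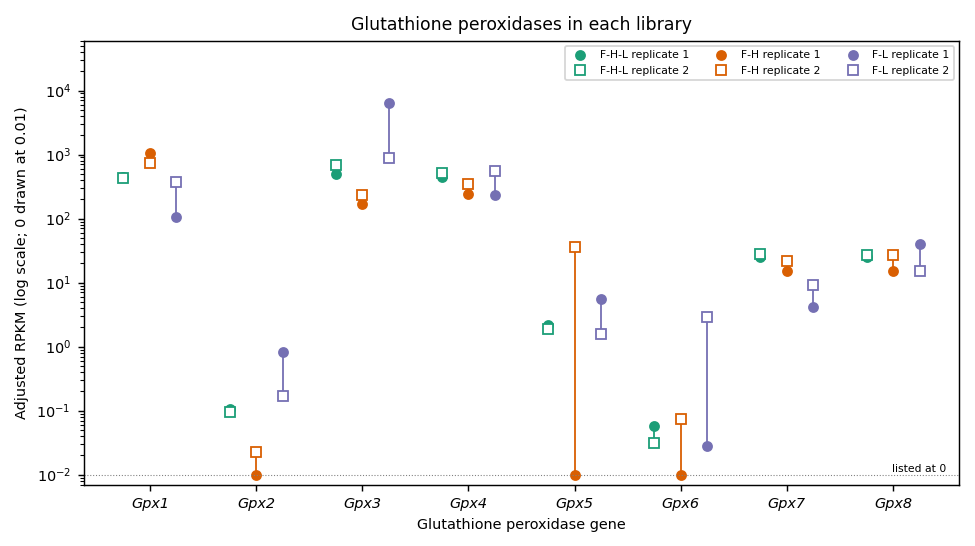
Adjusted RPKM of the 8 glutathione peroxidase genes on a log scale, with 1 point per library (filled for replicate 1, open for replicate 2), the F-H-L, F-H and F-L libraries side by side, and values of 0 drawn at 0.01. Gpx3 reaches 6294 in F-L replicate 1, Gpx1 is highest in both F-H libraries, and the F-H points of Gpx5 lie at 0 and 36.5.

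Of the 7 peroxiredoxins, 4 had higher and 1 lower values in F-H-L than in F-H without overlap (35.6% and 25.6% of all genes). Prdx1, a cytosolic peroxiredoxin, stood at 282 and 290.3 adjusted RPKM in F-H-L, 599 and 675 in F-H, against 320.3 and 184 in F-L. Both F-H libraries were above the other 4, each close to the other. Prdx1 (Entrez 18477, mm10 chromosome 4, 116685599 to 116700000) had a log2 fold change of 1.34 ± 0.40 in F-H against F-L (adjusted p = 0.107), 0.18 ± 0.39 in F-H-L against F-L (adjusted p = 0.816) and -1.16 ± 0.40 in F-H-L against F-H (adjusted p = 0.431). Prdx5, found in mitochondria and peroxisomes, was among the 3 most abundant members at 617 and 796 adjusted RPKM in F-H-L, 454 and 461 in F-H, against 497 and 321 in F-L. Its F-H-L libraries were above the F-H libraries, and F-L replicate 2 was lowest. Prdx5 had a log2 fold change of 0.16 ± 0.36 in F-H against F-L (adjusted p = 0.8), 0.79 ± 0.36 in F-H-L against F-L (adjusted p = 0.3) and 0.63 ± 0.36 in F-H-L against F-H (adjusted p = 0.565). Prdx6, which also reduces oxidised phospholipids, stood at 168 and 173 adjusted RPKM in F-H-L, 82.4 and 101 in F-H, against 207 and 112 in F-L. Both F-H libraries were lowest, and those of F-L lay on either side of F-H-L. Prdx6 had a log2 fold change of -0.80 ± 0.40 in F-H against F-L (adjusted p = 0.246), 0.09 ± 0.39 in F-H-L against F-L (adjusted p = 0.911) and 0.89 ± 0.40 in F-H-L against F-H (adjusted p = 0.505).

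Prdx6b, a relative of Prdx6, stood at 0.482 and 0.357 adjusted RPKM in F-H-L, 0 and 0.184 in F-H, against 1.55 and 35.6 in F-L. Its reads came nearly all from F-L replicate 2, where it had 5745 of the library's counts (0.0119%, Wilson interval 0.0116% to 0.0122%), against 0 counts in F-H replicate 1. The log2 fold change of Prdx6b was -7.65 ± 2.26 in F-H against F-L (adjusted p = 0.105), -5.46 ± 2.02 in F-H-L against F-L (adjusted p = 0.274) and 2.19 ± 1.85 in F-H-L against F-H (adjusted p = 0.678). Prdx2 lay between 83.7 and 148 adjusted RPKM, Prdx3, of mitochondria, between 60.5 and 96.4, and Prdx4, of the endoplasmic reticulum, between 13 and 37.7. None of these 3 had an unadjusted p under 0.05 in any comparison; the smallest adjusted p among them was 0.498.

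Of the thioredoxin system, Txnrd1, the cytosolic reductase, stood at 24.7 and 23.5 adjusted RPKM in F-H-L, 34.2 and 42.7 in F-H, against 43.0 and 16.5 in F-L. The F-H libraries were above the F-H-L libraries, and those of F-L lay at either end. Txnrd1 had a log2 fold change of 0.37 ± 0.48 in F-H against F-L (adjusted p = 0.654), -0.30 ± 0.48 in F-H-L against F-L (adjusted p = 0.736) and -0.68 ± 0.48 in F-H-L against F-H (adjusted p = 0.628), and it shares 1305 bases on the same strand with Eid3, which had up to 7152 counts, so reads of these genes cannot be told apart there. Its substrate Txn1 was at 167 and 189 adjusted RPKM in F-H-L, 308 and 278 in F-H, against 243 and 104 in F-L. Txn2 and Txnrd2, the mitochondrial forms, lay between 69.7 and 113 and between 8.61 and 16.5. Txnrd3, a reductase known from mouse testis, was at 53.8 in F-L replicate 2 and at most 8.16 in the other 5 libraries.

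The superoxide dismutases and catalase were highest in F-H-L. Sod2, the mitochondrial manganese enzyme, stood at 72.6 and 81.8 adjusted RPKM in F-H-L, 50.7 and 48.6 in F-H, against 36.3 and 36.5 in F-L. All 3 groups were apart, and the replicates of each group were within 1.13-fold of each other. Sod2 had a log2 fold change of 0.45 ± 0.26 in F-H against F-L (adjusted p = 0.305), 1.09 ± 0.26 in F-H-L against F-L (adjusted p = 0.274) and 0.64 ± 0.26 in F-H-L against F-H (adjusted p = 0.474), and in F-H-L against F-L its unadjusted p was 0.00664. Sod1, the cytosolic copper-zinc enzyme, stood at 525 and 645 adjusted RPKM in F-H-L, 338 and 429 in F-H, against 389.7 and 437 in F-L, with both F-H-L libraries above the other 4. Sod1 had a log2 fold change of -0.11 ± 0.31 in F-H against F-L (adjusted p = 0.849), 0.50 ± 0.31 in F-H-L against F-L (adjusted p = 0.39) and 0.61 ± 0.31 in F-H-L against F-H (adjusted p = 0.529).

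Sod3, the extracellular form, stood at 301 and 306 adjusted RPKM in F-H-L, 117 and 188 in F-H, against 20.7 and 129.9 in F-L. Cat, catalase, stood at 244 and 253 adjusted RPKM in F-H-L, 159.8 and 211 in F-H, against 23.6 and 144 in F-L. In both, the F-H-L libraries were highest and nearly equal, and F-L replicate 1 stood below F-L replicate 2, by 6.28-fold for Sod3 and 6.11-fold for Cat. Sod3 had a log2 fold change of 1.01 ± 0.83 in F-H against F-L (adjusted p = 0.471), 2.01 ± 0.85 in F-H-L against F-L (adjusted p = 0.288) and 0.996 ± 0.83 in F-H-L against F-H (adjusted p = 0.674). Cat (Entrez 12359, mm10 chromosome 2, 103453904 to 103485153) had a log2 fold change of 1.15 ± 0.81 in F-H against F-L (adjusted p = 0.403), 1.56 ± 0.82 in F-H-L against F-L (adjusted p = 0.337) and 0.42 ± 0.80 in F-H-L against F-H (adjusted p = 0.866). Without F-L replicate 2, edgeR called both Cat and Sod3 higher in the F-H-L and the F-H libraries than in F-L replicate 1, the library with the adipocyte marker share of 0.383%. Without F-L replicate 1 it called neither.

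The members' highest and lowest libraries were set beside those of the summed share of each marker list. For the epididymis markers the sum was highest in F-L replicate 1 and lowest in F-H replicate 1, as were 14 of the 50 tested members (28%, against 12% of all genes tested): Gclc, Gpx3, Gpx8, Gsta3, Gstm1, Gstm2, Gstm3, Gstm4, Gstm6, Gstm7, Gstp1, Gstt3, Nqo1 and Prdx6. The sum rests on a few abundant genes, since the median epididymis marker stood at 0.662 and 0.629 CPM in F-H-L, 0 and 1.70 in F-H, against 1.22 and 0.752 in F-L, highest in F-H replicate 2. The sum of the 12 mesothelium markers had the same end libraries as the epididymis sum, with 0.0307% and 0.0282% of counts in F-H-L, 0.0025% and 0.0221% in F-H, against 0.156% and 0.04% in F-L. Of these, Krt8 and Krt18 held 686 and 683 CPM in F-L replicate 1, while the median mesothelium marker stood at 11.3 and 16.9 CPM in F-H-L, 0.22 and 14.1 in F-H, against 3.05 and 12.9 in F-L. Summed testis germ cell markers were highest in F-L replicate 2 and lowest in F-H replicate 1, as were 7 members (14%, against 9.27% of all genes tested): Gsta2, Gsta4, Gstm5, Gsto2, Gstt4, Prdx6b and Txnrd3. Summed adipocyte markers were highest in F-H-L replicate 2 and lowest in F-L replicate 1, as were 11 members (22%, against 6.35% of all genes tested): Cat, Gpx7, Gsto1, Gstt1, Gstz1, Mgst1, Mgst2, Mgst3, Prdx4, Sod2 and Sod3. Summed endothelium markers had the same end libraries as the adipocyte markers. Summed macrophage markers were highest in F-H replicate 1 and lowest in F-L replicate 1, as was Gpx1 alone of the members tested (2%, against 9.39% of all genes tested). Summed smooth muscle markers had the end libraries of Gpx5 (2%, against 1.33% of all genes tested). Summed T and B lymphocyte markers had those of Txn1 (2%, against 7.05%), and summed neutrophil markers those of 0 members (against 3.94%). Fewer members shared the order of all 6 libraries with a list. They were 2 for the epididymis (4%, against 1.47%), 2 for the testis (4%, against 1.58%) and 4 for the adipocyte markers (8%, against 1.44%). The part of any of these cell types in the members' differences was not tested.

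**Figure D5:**
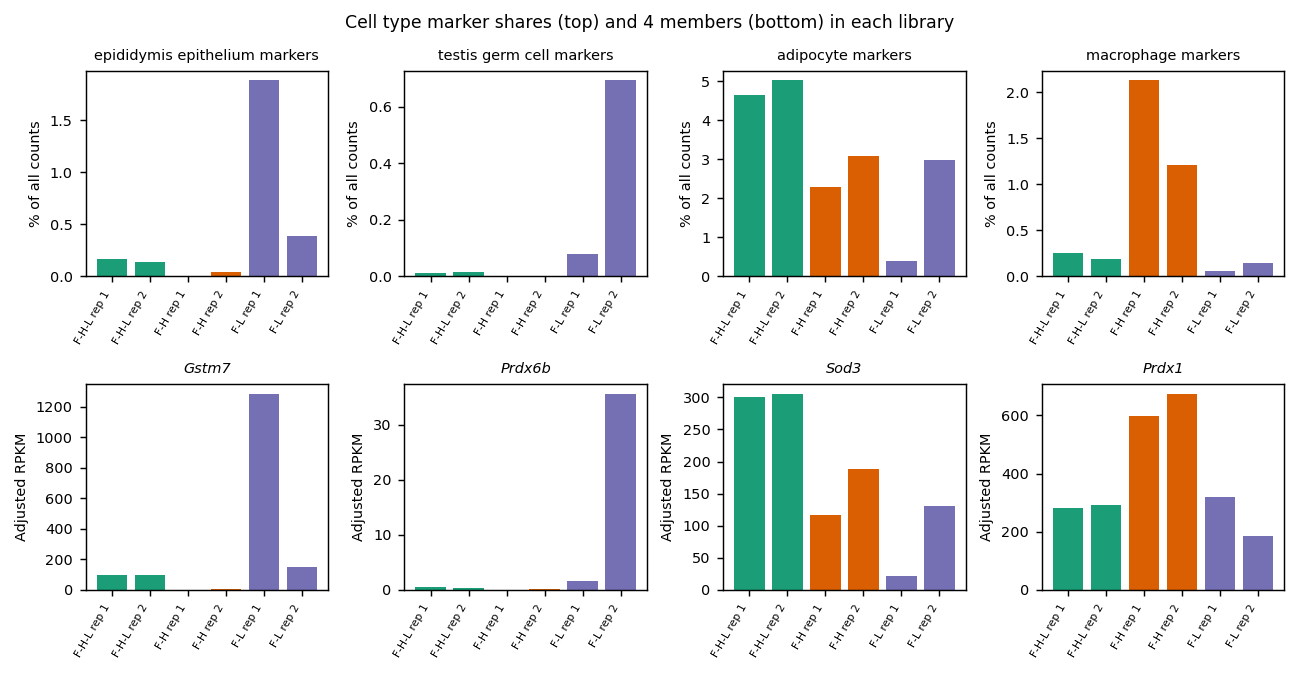
Share of all counts taken by the epididymis epithelium, testis germ cell, adipocyte and macrophage markers (top, in percent) and adjusted RPKM of Gstm7, Prdx6b, Sod3 and Prdx1 (bottom), 1 bar per library with the F-H-L, F-H and F-L libraries from left to right. Gstm7 and the summed epididymis markers are highest in F-L replicate 1, Prdx6b and the testis markers in F-L replicate 2, and Sod3 is lowest, like the adipocyte markers, in F-L replicate 1.

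Of the genes around these enzymes, 6 passed edgeR's test, all in F-H against F-L and all higher in F-H. These calls depend on the fit: with median-ratio size factors, robust empirical Bayes, the 2 groups alone or the replicate block edgeR called 0 of all genes in that comparison. Of 17 tested genes of superoxide and peroxide sources, 4 rose in F-H (0.866% of all genes were called) and 0 fell. Cybb, Cyba and Ncf1, subunits of the phagocyte NADPH oxidase, were among those that rose. At an unadjusted p under 0.05 this list held 8 higher and 2 lower genes in F-H (12.5% and 16.7% of all genes). DESeq2 called 7 higher and 1 lower (27.1% of all genes in either direction). Cyba was at 112 and 115 adjusted RPKM in F-H-L, 654 and 406 in F-H, against 34.9 and 40.6 in F-L (log2 fold change 3.81 ± 0.36 in F-H against F-L, adjusted p = 0.0447). Cybb was at 10.9 and 6.75 in F-H-L, 133 and 57.5 in F-H, against 2.28 and 4.22 in F-L (log2 fold change 4.87 ± 0.64, adjusted p = 0.0486). Ncf1 had a log2 fold change of 4.12 ± 0.53 (adjusted p = 0.048). Macrophage marker shares, given above, were highest in the same F-H libraries. Of 20 genes of glutathione breakdown, salvage and transport, 2 rose in F-H and 0 fell, both peptidases of the cell surface: Anpep, at 8.40 and 6.70 in F-H-L, 107 and 76.5 in F-H, against 5.42 and 4.13 in F-L, and Dpep2, at 2.04 and 2.42 in F-H-L, 28.8 and 21.1 in F-H, against 0.593 and 0.760 in F-L. At an unadjusted p under 0.05 that list held 6 higher and 3 lower genes (12.5% and 16.7% of all genes). DESeq2 called 6 higher and 3 lower (27.1% of all genes in either direction).

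None of 27 tested Nrf2 regulators and classic targets outside the members, 22 glutaredoxin and thiol reduction genes and 17 NADPH supply genes passed edgeR's test in F-H against F-L. At an unadjusted p under 0.05 the Nrf2 list held 10 higher and 3 lower genes in that comparison (12.5% and 16.7% of all genes). The thiol list held 3 and 1, and the NADPH list 2 and 3. DESeq2 called 7 higher and 3 lower, 3 and 0, and 2 and 3 of them (27.1% of all genes in either direction). In the other comparisons edgeR called 0 genes of the 5 lists. In F-H-L against F-L, genes with an unadjusted p under 0.05 were 4 higher and 3 lower in the Nrf2 list, 5 and 3 in the glutathione list, 1 and 0 in the thiol list, 4 and 3 in the NADPH list and 8 and 1 in the list of oxidant sources (8.32% and 9.51% of all genes). DESeq2 called 1 higher and 2 lower, 3 and 3, 1 and 0, 2 and 1, and 2 and 0 in the same order of lists (10.9% of all genes in either direction). In F-H-L against F-H these unadjusted counts were 0 higher and 6 lower, 0 and 2, 3 and 2, 0 and 0, and 1 and 6 (4.92% and 5.68% of all genes), and DESeq2 called 0 higher and 3 lower, 0 and 2, 1 and 1, 0 and 0, and 0 and 5 (5.36% of all genes in either direction). Hmox1, heme oxygenase, stood at 39.0 and 34.1 adjusted RPKM in F-H-L, 159 and 178 in F-H, against 4.97 and 17.3 in F-L, with a log2 fold change of 3.92 ± 0.64 in F-H against F-L (adjusted p = 0.0594). Slc7a11, the cystine transporter, ran the other way, at 0.429 and 0.770 in F-H-L, 0.412 and 0.324 in F-H, against 5.87 and 1.67 in F-L (log2 fold change -3.36 ± 0.74, adjusted p = 0.0767). Srxn1, which repairs overoxidised peroxiredoxins, was at 18.4 and 22.4 in F-H-L, 29.1 and 45.0 in F-H, against 114 and 20.98 in F-L. Nfe2l2 was at 19.6 and 17.6 in F-H-L, 42.2 and 30.6 in F-H, against 23.0 and 13.8 in F-L (log2 fold change 0.98 ± 0.35 in F-H against F-L, adjusted p = 0.14). Keap1 lay between 11.2 and 17.2 adjusted RPKM in all 6 libraries, and Txnip, the thioredoxin-binding protein gene, between 146 and 430.0.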

How the data were processed

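The 6 libraries of epididymal fat were compared, 2 per group. The deposited table gives whole-number counts per gene, per the file headers, and RPKM values by the authors, also per the file headers. RPKM recomputed here from counts, Length and the sum of counts matched the deposited value within a relative 1e-06 for 100% of genes above 50 counts. Per the submitters' processing notes the tools were bcl2fastq, HISAT2 2.1.0 and HTSeq, with build mm10; the sources used here give neither the strand setting nor the annotation release. Without a strand, reads of Gstz1 and Pomt2, and of Gpx8 and Cdc20b, which overlap on opposite strands, cannot be told apart where they overlap.

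Counts were fitted in R 4.3.3 with edgeR 4.0.16 (filterByExpr, 22289 genes; TMM factors 0.902 to 1.16; 1 quasi-likelihood fit to all 6 libraries, with 3 group terms; 3 residual degrees of freedom; biological coefficient of variation 0.631). Tests are two-sided, with Benjamini-Hochberg adjustment over all genes and a threshold of 0.05. The SE is the size of a log2 fold change over the root of its F statistic. Adjusted RPKM divides counts by the deposited Length (unit: other, bases) and the TMM-adjusted library size. On deposited RPKM, the overlap of groups differs for 6 members in F-H against F-L: Cat, Gclc, Gstp1, Txn2, Txnrd2 and Txnrd3. In F-H-L against F-L it differs for 7: Gclc, Gpx1, Gstm3, Gstm4, Gstp2, Gstt3 and Txn2. In F-H-L against F-H it differs for 0, and in no comparison did a direction turn. The fit was tested on simulated data.

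The members and lists were chosen with earlier results of these data known. Values and tests in full were given for members past the test, for the 5 with the largest fold change in each comparison (group mean of at least 1 RPKM), for the 3 most abundant and for 19 members always named; Gsto1 was added after its values were seen. Some items are not reported here. Repeats within near-copies were counted as the share of a transcript's 50-base stretches found in other genes' GENCODE transcripts. The largest shares not given above were 26.0% for Gstt3, 23.1% for Sod1, 18.9% for Gpx2, 10.9% for Prdx1 and 8.96% for Prdx2. Promoter sequences are from RefSeq. Alternatives were DESeq2 1.42.0, limma 3.58.1 on log2 RPKM with pseudocounts of 1 and 0.1, other scalings and filters, robust empirical Bayes, a replicate block, 2 groups alone, a threshold of 0.1 and each library left out. Figures were drawn with Python 3.11.15 and matplotlib 3.10.9.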

Additional observations from a re-analysis of the deposited data

How the results depend on the processing

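The count of members called depended on the fit, above all in F-H against F-L. There edgeR called 193 of all genes, but 0 with median-ratio size factors, with robust empirical Bayes, with the 2 groups alone or with the replicate block, and 1 with library totals only. It called 6025 genes and 24 members with no low-count filter, 623 genes and 2 members with a filter of RPKM of at least 1 in 2 libraries, and 3152 genes and 9 members at an adjusted p under 0.1. DESeq2 called 6035 genes and 19 members, and limma called 411 genes on log2(RPKM + 1) and 1040 genes and 4 members on log2(RPKM + 0.1). In F-H-L against F-L, no low-count filter gave 3910 genes and 19 members and DESeq2 gave 2425 and 9. In F-H-L against F-H these gave 1759 genes and 10 members, and 1194 and 4, and the 2 groups alone gave 289 and 1. Leaving out 1 library at a time, genes called ran from 0 to 5799 in F-H against F-L, 0 to 3508 in F-H-L against F-L and 0 to 828 in F-H-L against F-H, and members called from 0 to 24, 0 to 20 and 0 to 3. Every one of these calls came from leaving out an F-L library. The cause was not tested.

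Deviations of equally numbered libraries from their group means correlated across genes at 0.0017 in F-H and F-L and at -0.16 in F-H-L and F-L. In F-H-L and F-H they correlated at 0.064. With 2 libraries per group, these values cannot settle whether equally numbered libraries share a source of spread. With the replicate block edgeR called 0 members in each comparison, and with the F-L numbers crossed, a choice made after seeing the data, it called 0 genes and 0 members in F-H-L against F-L. The crossed fit called 184 genes in F-H against F-L.

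The signs given next are those of members described with full statistics. In F-H against F-L, Gsr turned to -0.025 with median-ratio factors, -0.17 with library totals, -0.081 with the RPKM filter, -0.025 with DESeq2 and -0.11 with limma at either pseudocount, Prdx5 to -0.061 with library totals and -0.034 with limma at either pseudocount, and Gpx5 to -0.83 with limma at 0.1. In F-H-L against F-L, Prdx6 turned to -0.022 with median-ratio factors, -0.16 with library totals, -0.0276 with the RPKM filter, -0.022 with DESeq2 and -0.10 with limma at either pseudocount, Prdx1 to -0.071 with library totals and -0.025 with limma at either pseudocount, and Gpx4 to -0.020 with library totals. Gpx5 turned to 0.071 in F-H-L against F-H with limma at 0.1. Library totals moved the median of all genes in F-H against F-L to -0.35, against -0.12 with TMM, and in F-H-L against F-L to -0.35, against -0.09.

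With 1 library left out, log2 fold changes in F-H against F-L ran from -1.18 to 0.53 for Gclm, -0.95 to 0.41 for Gpx4, -11.05 to 3.53 for Gpx5, -0.33 to 0.69 for Gsr, -2.00 to 0.026 for Gstp1, -0.034 to 0.50 for Prdx5, -0.23 to 0.11 for Sod1 and -0.077 to 1.21 for Txnrd1. In F-H-L against F-L they ran from -0.93 to 0.015 for Gclc, -1.41 to 0.28 for Gclm, -0.31 to 1.06 for Gpx4, -1.40 to 0.31 for Gpx5, -0.56 to 0.46 for Gsr, -1.45 to 0.57 for Gstp1, -0.14 to 0.55 for Prdx1, -0.26 to 0.52 for Prdx6 and -0.81 to 0.47 for Txnrd1. In F-H-L against F-H they ran from -0.51 to 0.28 for Gclm, -4.15 to 10.32 for Gpx5, -0.37 to 0.11 for Gsr and -0.018 to 1.68 for Gstm3. The median over members ran from -0.71 to -0.074, -0.28 to 0.34 and 0.51 to 1.11 in the 3 comparisons. Of the other 22 members tested, 9, 8 and 5 turned in at least 1 alternative in F-H against F-L, F-H-L against F-L and F-H-L against F-H, the largest being Txnrd3 in F-H-L against F-L, at a main log2 fold change of -2.01. Gpx2, Gpx6 and Gsta1 were too low to be tested.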

Other observations

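Outside the protein-coding members, 5 pseudogene rows of the table carry matching names. Gstm2-ps1, a pseudogene on chromosome 5 (mm10, 116632481 to 116633605), had 184 and 133 counts in F-H-L, 63 and 90 in F-H, against 512 and 233 in F-L, in the order of groups seen for Gstm1 and Gstm2. Among the 50-base stretches of Gstm1, 17.3% recur in Gstm2-ps1. The other 4 rows, Gpx2-ps1, Gpx4-ps, Prdx2-rs3 and Prdx6-ps2, had at most 5 counts in any library.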
